A study of Homo sapiens with 5 samples.

Results

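The lysosome and autophagy genes described here are 51 genes of H157 cells, taken as the rows of the deposited gene table that carry their symbols. They code for lysosomal hydrolases, lysosomal membrane proteins, subunits of the lysosomal proton pump, the core autophagy machinery and the MiT/TFE transcription factors. All 51 were found among 25343 genes in the table, and they fall into 11 groups by role. Of them, 49 had a mean of at least 1 CPM (counts scaled to the library total) over the libraries. The other two, MITF and CTSK, are described only by their values.

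H157 cells derive from a human lung carcinoma, and 5 lines made from them were sequenced: a control with empty vector, YAP on its own, YAP together with either full-length TEAD4 (YAP/TEAD4-FL) or its short isoform (YAP/TEAD4-S), and YAP joined by the splicing factor RBM4 (YAP/RBM4). YAP is the co-activator of the Hippo pathway, TEAD4 is a DNA-binding partner of YAP, and the short isoform lacks the DNA-binding domain, so the study asked how the isoform and RBM4 alter the genes that respond to YAP. The labels name a pCDNA control, whereas the methods describe stable lines and lentiviral pCDH vectors for making them. Each line gave 1 library.

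Lysosomes are acidic compartments in which hydrolases break down proteins, lipids and sugars. A proton pump, the V-ATPase, acidifies them, and cathepsins are their main proteases. In macroautophagy, the ULK kinase complex and a lipid kinase complex built on beclin 1 start a membrane, a conjugation system attaches ATG8 proteins such as LC3 to it, and receptors such as p62 bring cargo to it before it fuses with a lysosome. TFEB, TFE3 and MITF are transcription factors that bind a short E-box-containing element, called the CLEAR element, in front of many of these genes, and YAP acts on DNA through TEAD proteins, which bind a different motif.

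With 1 library for each line no test between lines was possible, and no value below is a test. Ratios between libraries are ratios of CPM. Each is followed by its exact 95% counting interval (Clopper-Pearson, from the rounded expected counts), which covers counting error only and says nothing about variation between cultures. A member was counted as higher or lower at a difference of at least 2-fold on the log2(CPM + 0.5) scale, which understates the change of low genes. That count is set beside the percentage of all 15024 genes whose mean reached 1 CPM that passed the same limit. Medians are log2 ratios after subtraction of the median over those genes, and genes are not replicates. The interval beside a median is a 95% interval from the ordered values of the members. It treats the members as independent, which genes of a library need not be, and says nothing about variation between cultures.

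The libraries were shallow and unequal, with 2144934 expected counts for vector, 1399452 for YAP, 2396789 for YAP/TEAD4-FL, 3015173 for YAP/TEAD4-S and 2619399 for YAP/RBM4. A count of 0 in a library allows a level of up to 2.14 CPM in the YAP library and 0.995 CPM to 1.4 CPM in the other four (a floor of 3 counts). YAP1 stood at 33.1 CPM in vector and at 59.4 CPM to 135.6 CPM in the other lines, and TEAD4 at 120.6 CPM in YAP/TEAD4-FL, 50.03 CPM in YAP/TEAD4-S and 3.57 CPM to 5.73 CPM elsewhere. RBM4 was not raised in the library labelled as YAP/RBM4, with 167.2 CPM against 149.7 CPM in vector and 201.9 CPM in YAP. On library totals, the median gene was lower than vector by a log2 ratio of -0.29 in YAP/TEAD4-S and higher by 0.17 in the library labelled as YAP/RBM4. Of the epithelial markers, KRT8, KRT18, CDH1 and KRT7 were detected at a mean above 1 CPM, while EPCAM, KRT5 and KRT19 were below it. The summed level of the 7 epithelial markers was 527.5 CPM to 1406 CPM. All 5 mesenchymal markers were detected, at a sum of 468.0 CPM to 733.4 CPM. The leukocyte markers summed to 320.3 CPM to 397.3 CPM, nearly all in PTPRC and LYZ, with TYROBP at 0 in every library. Fibroblast markers summed to 7.74 CPM to 26.7 CPM with COL1A2 and DCN at 0, and endothelial markers to 94.0 CPM to 147.5 CPM, nearly all in PECAM1, with VWF at 0.

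The strand to which reads were assigned limits every level given here. The column headers of the table carry the words second strand, and many genes that lie antisense to abundant genes stood above them. VIM-AS1, antisense to the vimentin gene, had a mean of 13801 CPM and VIM itself 397.6 CPM. TPT1-AS1 had 2877 CPM and TPT1 681.6 CPM, and the antisense gene was the higher in 170 of 264 such pairs (64.4%) in which either gene reached 10 CPM. ACTB, GAPDH and EEF1A1, among the most abundant transcripts of most cells, ranked 104, 102 and 99 in the table, and the median of 84 ribosomal protein genes was 158.4 CPM. In such a table a level cannot be read as the amount of a gene's own RNA, since reads from the opposite strand may be counted in it and its own reads left out. Values here, those of the markers above included, are therefore levels in this table. The 26 members compared that have no exon base opposite an exon of another gene are given separately for the numbers of members at least 2-fold away. That subset leaves out overlaps with annotated exons only, and its members' own reads may still be missing.

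The promoters below are shown because they hold the palindrome at the core of the CLEAR element, TCACGTGA (capitals), within 250 bases before the transcription start. Sequences are from RefSeq on GRCh38.p14 and are written 5′ to 3′ on the strand of the gene. ATP6V0D1, a subunit of the proton pump, lies on the minus strand with this window at chr16:67481158-67481407, and the other four genes lie on the plus strand. They are CTSA, a carboxypeptidase and protective protein (chr20:45891085-45891334), GAA, the acid alpha-glucosidase that degrades glycogen (chr17:80101331-80101580), LAMP1, a lysosomal membrane glycoprotein (chr13:113296989-113297238), and MCOLN1, a lysosomal calcium channel (chr19:7522374-7522623).
ATP6V0D1: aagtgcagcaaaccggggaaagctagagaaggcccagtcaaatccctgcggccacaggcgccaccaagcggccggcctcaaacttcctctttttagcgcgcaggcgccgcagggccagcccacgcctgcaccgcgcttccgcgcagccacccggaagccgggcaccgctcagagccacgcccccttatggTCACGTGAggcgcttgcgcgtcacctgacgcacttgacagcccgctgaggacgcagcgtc
CTSA: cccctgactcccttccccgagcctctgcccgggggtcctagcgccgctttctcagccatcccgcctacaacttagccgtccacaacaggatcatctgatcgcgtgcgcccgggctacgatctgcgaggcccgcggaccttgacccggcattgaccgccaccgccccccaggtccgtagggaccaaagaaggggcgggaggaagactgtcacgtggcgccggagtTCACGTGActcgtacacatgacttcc
GAA: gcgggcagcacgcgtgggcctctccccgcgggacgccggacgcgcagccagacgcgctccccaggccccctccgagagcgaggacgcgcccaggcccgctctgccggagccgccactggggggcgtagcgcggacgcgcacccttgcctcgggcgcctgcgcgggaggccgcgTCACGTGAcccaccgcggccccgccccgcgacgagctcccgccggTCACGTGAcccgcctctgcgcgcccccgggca
LAMP1: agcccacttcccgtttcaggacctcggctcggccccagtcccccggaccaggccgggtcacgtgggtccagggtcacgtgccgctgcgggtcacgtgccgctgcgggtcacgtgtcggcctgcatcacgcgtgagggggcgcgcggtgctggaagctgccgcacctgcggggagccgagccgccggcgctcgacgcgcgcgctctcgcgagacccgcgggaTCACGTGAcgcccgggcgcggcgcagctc
MCOLN1: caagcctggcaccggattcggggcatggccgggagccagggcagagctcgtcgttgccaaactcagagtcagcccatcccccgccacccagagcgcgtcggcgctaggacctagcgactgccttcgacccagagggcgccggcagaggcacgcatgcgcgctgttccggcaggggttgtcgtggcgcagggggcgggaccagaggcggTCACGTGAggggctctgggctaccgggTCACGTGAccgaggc

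The motif is its own reverse complement, so both strands were searched at once. Promoter sequences were matched for 38 of the 51 members, as 55 sequences in all because several genes have more than 1 start. TCACGTGA was present in 5 of the 55 sequences (9.09%) and in 0.854% of all 35116 promoter windows of the same length. GAA and MCOLN1 each held it at 2 places. The shorter E-box CACGTG, which the palindrome contains, was present in 8 of the 55 sequences (14.5%) and in 6.34% of all windows. CATTCC, or GGAATG on the other strand, the motif of TEAD proteins, was present in the promoters of ATG13, ATG7, BECN1, CD63, GABARAPL2, MITF, PIK3C3 and ULK1, in 14.5% of the 55 sequences, against 11.9% of all windows, a like share. A match describes the letters in this window only.

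The levels of the members spanned from below 1 CPM to 762.5 CPM. CTSC (cathepsin C), CTSB (cathepsin B), SQSTM1 (the cargo receptor p62) and ATG7 (the activating enzyme of autophagy conjugation) together held 67.3% of all counts of the members. Of the 51 members, 25 had a mean of at least 10 CPM and 26 a lower one. Per kilobase of exon, ATG7 had the highest mean level at 43.5 CPM per kb, followed by SQSTM1 at 41.0, CTSB at 29.3, CTSC at 26.2 and PSAP at 15.3 CPM per kb. The summed level of all members was 2798 CPM in vector, 2406 CPM in YAP, 2514 CPM in YAP/TEAD4-FL, 1929 CPM in YAP/TEAD4-S and 2546 CPM in the library labelled as YAP/RBM4. On library totals, the vector library therefore held the highest sum and YAP/TEAD4-S the lowest. These sums do not subtract the median gene, which in YAP/TEAD4-S was lower than vector by a log2 ratio of -0.29. The median member had 11 counts in the YAP library and 24 to 32 in the other libraries, and 32 members had fewer than 20 counts in the YAP library.

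**Figure D1:**
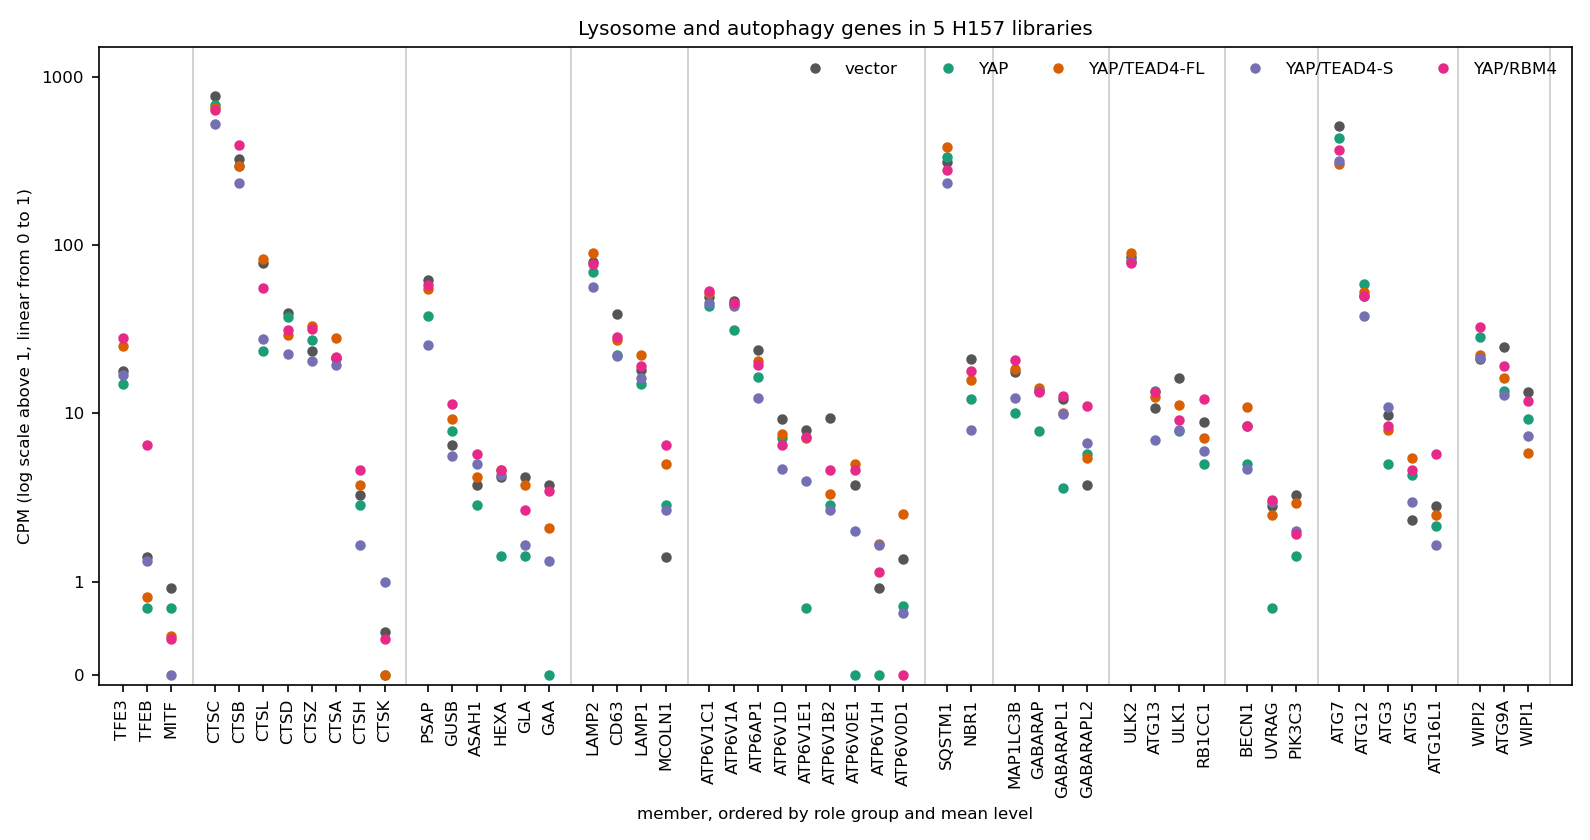
Level of each of the 51 members in CPM (vertical axis, log scale above 1 and linear below it) in the 5 libraries, 1 point per library, with the members grouped by role and ordered by mean level within a role. CTSC, CTSB, SQSTM1 and ATG7 stand above 230 CPM in every library. The lowest point is that of YAP for 21 of the 49 members compared (20.7% of all genes) and that of YAP/TEAD4-S for 20 (46.9% of all genes).

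Against vector, the YAP library held lower levels of many of these genes. The members' median was a centred log2 ratio of -0.52, with an interval of the median from its ordered values of -0.76 to -0.24, and 40 of 49 members lay below the median gene. Of the 49 members, 11 were at least 2-fold lower (22.4%), against 9.57% of all genes, and 0 were at least 2-fold higher, against 4.9% of all genes. The 11 were CTSL, GLA, GAA, HEXA, ATP6V0E1, ATP6V1B2, ATP6V1E1, ATP6V1H, GABARAPL1, ULK1 and UVRAG. Of these, GAA, ATP6V0E1 and ATP6V1H had 0 counts in YAP and pass the limit only through the pseudocount, and ATP6V1H is at or under the floor in both libraries. With zeros set at the floor, 8 members were lower, against 8.05% of all genes compared in that way. Ratios whose counting interval left out 1 were found for 13 members, all lower, whereas 7.41% of all genes were lower and 8.68% higher by this rule. Among the 26 members with no exon opposite another gene, 7 were at least 2-fold lower and 0 higher, and the median was -0.42. The RNA came from whole cultures, so fewer cells that express a gene and less RNA in each cell cannot be told apart.

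Low ratios were found at both ends of expression and were more frequent among low genes, where counts are few. Among the 24 members with a mean of 1 to 10 CPM, 9 were at least 2-fold lower, against 17.3% of all genes in that range. Among the 25 members whose mean reached 10 CPM, 2 were at least 2-fold lower, CTSL and ULK1, against 3.32% of all genes in that range. In this higher range 20 of the 25 members still lay below the median gene, with a median centred log2 ratio of -0.29. The YAP library was the lowest of the 5 for 21 of 49 members, against 20.7% of all genes, and the highest for 2 of them, against 20.6% of all genes. YAP/TEAD4-S was the lowest for 20 members, against 46.9% of all genes. With TMM factors YAP was lowest for 26 members and YAP/TEAD4-S for 7, against 26.1% and 17.4% of all genes.

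**Figure D2:**
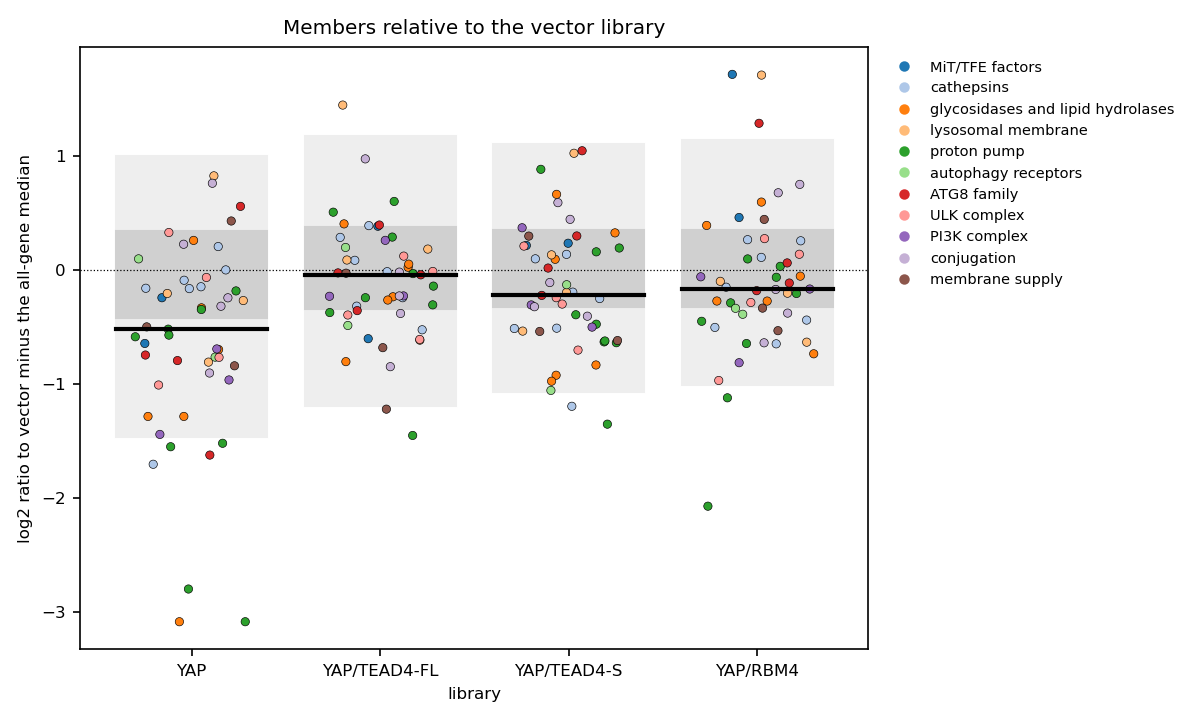
Log2 ratio to vector of the 49 members compared, after subtraction of the median over all genes (vertical axis), in the other 4 libraries. Points are members coloured by role, black lines are the members' medians, and the dark and light grey bands hold the middle 50% and 90% of all 15024 genes. The members' median is -0.52 in YAP and lies between -0.22 and -0.045 in the other three libraries, which share the same vector library.

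By the median and the number of members at least 2-fold away, the other three lines lay closer to vector. For YAP/TEAD4-S this depended on the measure, since more members had a counting interval below 1 there than with YAP, and its median without the filter on low genes was -0.51. Neither of these measures subtracts the lower median gene of that library. Without the filter the median of all genes was 0, against -0.29 with it. With YAP/TEAD4-FL, 2 of 49 members were at least 2-fold higher and 2 at least 2-fold lower, against 8.9% and 6.0% of all genes, and the median was -0.045 (-0.24 to 0.022). MCOLN1 and ATG5 were the higher ones, ATP6V1B2 and WIPI1 the lower. Counting intervals left out 1 for 1 member above vector and 5 below it, against 13.1% and 8.69% of all genes. With YAP/TEAD4-S, 0 members were at least 2-fold higher and 6 lower (12.2%), against 3.5% and 11.0% of all genes, with a median of -0.22 (-0.41 to 0.096). The lower ones were CTSL, PSAP, NBR1, ATP6V1B2, GLA and GAA. Intervals left out 1 for 0 members above and 16 below, against 2.84% and 24.4% of all genes. The number of lower members with YAP/TEAD4-S was thus close to the share among all genes. After scaling by TMM factors, which correct for the lower median gene of that library, 1 member was higher and 3 were lower, against 5.84% and 6.56% of all genes with the same factors. In the library labelled as YAP/RBM4, 3 members were at least 2-fold higher and 1 was lower, against 9.22% and 3.47% of all genes, with a median of -0.17 (-0.29 to -0.056). TFEB, MCOLN1 and GABARAPL2 were higher. ATP6V0D1, the lower one, is at or under the floor in both libraries and is not counted with zeros at the floor. There the intervals left out 1 for 6 members above and 6 below, against 14.9% and 7.02% of all genes. With TMM factors these 2-fold counts became 3 higher and 2 lower, against 6.91% and 4.64% of all genes. For YAP/TEAD4-FL over vector they became 1 higher and 2 lower, against 7.28% and 6.67%. Among the 26 members with no opposite exon, YAP/TEAD4-FL had 2 higher and 1 lower, YAP/TEAD4-S had 0 higher and 4 lower, and the library labelled as YAP/RBM4 had 2 higher and 1 lower.

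When the YAP library served as the reference, most members lay above the median gene in the lines with a second construct. They numbered 39 of 49 for YAP/TEAD4-FL, 31 for YAP/TEAD4-S and 37 for the library labelled as YAP/RBM4. For YAP/TEAD4-S the median gene itself lay below YAP, at a log2 ratio of -0.29. A member above it there need not have a higher CPM than in YAP. These comparisons share the YAP library, so its low levels enter each of them. Over YAP, 11 of 49 members were at least 2-fold higher in YAP/TEAD4-FL (11.6% of all genes) and 0 were lower (3.94% of all genes), with a median of 0.28 (0.16 to 0.45). The 11 were CTSL, GLA, GAA, HEXA, ATP6V0D1, ATP6V0E1, ATP6V1E1, ATP6V1H, GABARAPL1, BECN1 and UVRAG. With YAP/TEAD4-S 8 were at least 2-fold higher (6.1% of all genes) and 0 lower (8.62% of all genes), with a median of 0.22 (-0.0028 to 0.46). These were GAA, HEXA, ATP6V0E1, ATP6V1E1, ATP6V1H, GABARAPL1, UVRAG and ATG3. For GAA, ATP6V0E1 and ATP6V1H this count rests on 0 counts in YAP, and at the floor they were not shown to be higher. With zeros at the floor, 5 were higher, against 4.07% of all genes so compared. In the library labelled as YAP/RBM4 13 were higher (13.3% of all genes) and 1 lower (2.94% of all genes), with a median of 0.36 (0.15 to 0.54). The higher ones were TFEB, CTSL, GAA, HEXA, MCOLN1, ATP6V0E1, ATP6V1E1, ATP6V1H, MAP1LC3B, GABARAPL1, RB1CC1, UVRAG and ATG16L1, and ATP6V0D1 was the lower. ATP6V1H and ATP6V0D1 are at or under the floor in both of these libraries. With zeros at the floor, 11 were higher and 0 lower, and for YAP/TEAD4-FL over YAP 9 were higher, against 11.4%, 2.42% and 9.85% of all genes so compared. Among the 26 members with no opposite exon, those at least 2-fold higher than YAP numbered 6 for YAP/TEAD4-FL, 4 for YAP/TEAD4-S and 8 for the library labelled as YAP/RBM4. Members whose interval lay above 1 numbered 9 in YAP/TEAD4-FL over YAP (9.53% of all genes), 1 for YAP/TEAD4-S (1.94%) and 12 for the library labelled as YAP/RBM4 (12.4%). Those with an interval below 1 numbered 1 (7.35%), 7 (22.7%) and 2 (6.94%) in the same order. Between the TEAD4 isoforms, 0 members were at least 2-fold higher in YAP/TEAD4-S than in YAP/TEAD4-FL (2.22% of all genes) and 5 were lower (11.2% of all genes), a share of 10.2%. The 5 were CTSL, PSAP, BECN1, ATP6V0D1 and ATP6V0E1. The median there was -0.089 (-0.25 to 0.082), and with TMM factors 2 members were lower, against 5.17% of all genes. Among the 26 members with no opposite exon, 0 were higher and 4 lower. Intervals lay above 1 for 0 members and below 1 for 13, against 1.49% and 30.8% of all genes.

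**Figure D3:**
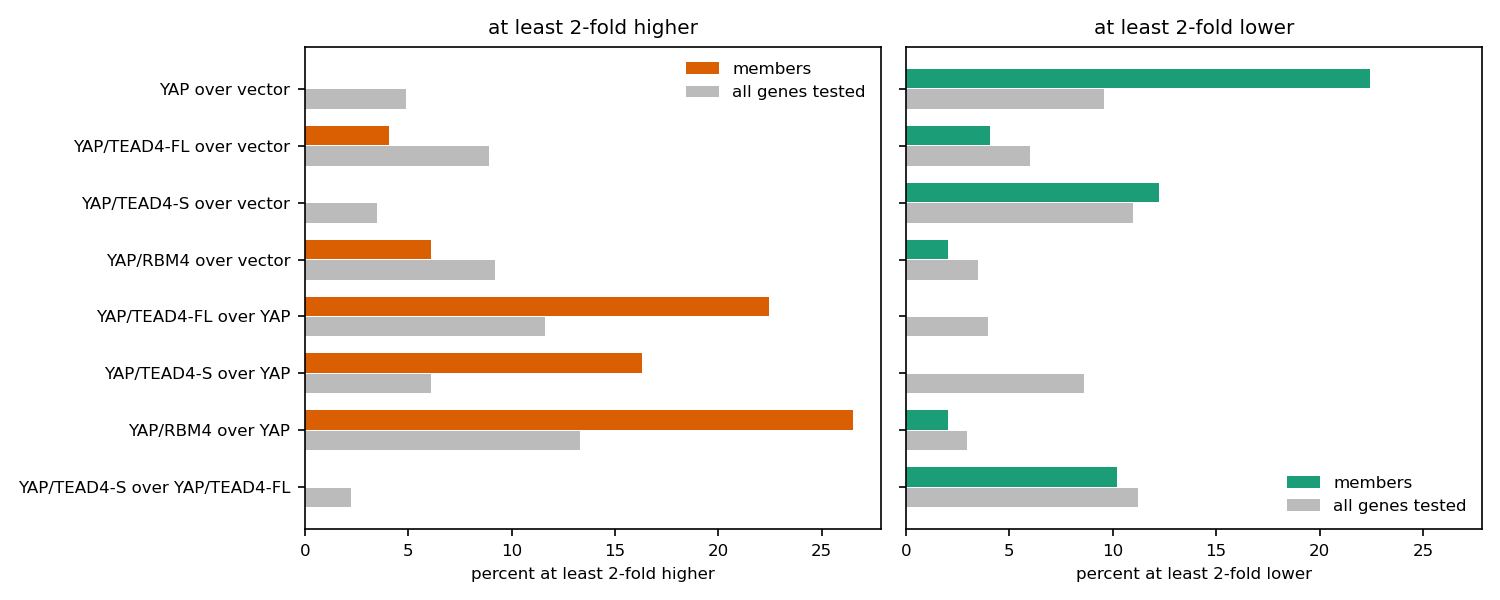
Percentage of the 49 members (coloured bars) and of all 15024 genes (grey bars) at least 2-fold higher (left) or lower (right) in each of the 8 comparisons, with the percentage on the horizontal axis, which starts at 0. Members exceed all genes among those lower with YAP over vector, 22.4% against 9.57%, and among those higher in the 3 comparisons over the YAP library.

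Of the transcription factors, TFEB, a master regulator of lysosomal genes on chromosome 6 of hg19 from 41651716 to 41703997 on the minus strand, had 1.4 CPM in vector, 0.715 CPM in YAP, 0.834 CPM in YAP/TEAD4-FL, 1.33 CPM in YAP/TEAD4-S and 6.49 CPM in the library labelled as YAP/RBM4. These rest on 3, 1, 2, 4 and 17 counts. The library labelled YAP/RBM4 stood apart from the other four, at a ratio to vector of 4.64 (1.34 to 24.7) and to YAP of 9.08 (1.42 to 379.6). TFE3, its paralog on the X chromosome, was more abundant, with 17.9 CPM, 15.0 CPM, 25.03 CPM, 16.9 CPM and 27.9 CPM in the same order of libraries. Its ratio to vector was 1.56 (1.05 to 2.39) for the library labelled as YAP/RBM4 and 1.4 (0.926 to 2.18) for YAP/TEAD4-FL. MITF, the melanocyte member of the family, had 2 counts in vector, 0 in YAP/TEAD4-S and 1 in each other library, which is below the floor everywhere. The summed level of these factors in the library labelled as YAP/RBM4 was 1.72 times that of vector (1.19 to 2.55). This sum is on library totals, where the median gene of that library was itself higher than vector by a log2 ratio of 0.17.

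Of the cathepsins compared, CTSL alone passed 2-fold in any comparison. This gene for a broadly acting cysteine protease, on chromosome 9 of hg19 from 90338966 to 90346384, had 77.9 CPM in vector, 23.6 CPM in YAP, 82.2 CPM in YAP/TEAD4-FL, 27.5 CPM in YAP/TEAD4-S and 55.7 CPM in the library labelled as YAP/RBM4. The libraries thus split into low levels with YAP and YAP/TEAD4-S and high levels with vector and YAP/TEAD4-FL, with the library labelled as YAP/RBM4 between them. The counts behind them were 167, 33, 197, 83 and 146. Over vector, the ratio was 0.303 (0.202 to 0.442) for YAP, 1.06 (0.855 to 1.31) for YAP/TEAD4-FL, 0.354 (0.268 to 0.463) for YAP/TEAD4-S and 0.716 (0.569 to 0.899) for the library labelled as YAP/RBM4. Adding full-length TEAD4 to YAP went with a level 3.49 times higher (2.40 to 5.2), while the level with YAP/TEAD4-S was 1.17 times that of YAP alone (0.771 to 1.80), and its ratio to YAP/TEAD4-FL was 0.335 (0.256 to 0.435). CTSL stayed past the 2-fold limit in these comparisons with TMM factors, at 0.298 for YAP over vector and 0.435 for YAP/TEAD4-S over vector. No exon base of CTSL overlaps an exon of another gene on the opposite strand.

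The other cathepsins moved by less. CTSC, which activates granule serine proteases, was the most abundant member by CPM, with 762.5 CPM in vector, 681.7 CPM in YAP, 652.6 CPM in YAP/TEAD4-FL, 524.3 CPM in YAP/TEAD4-S and 631.9 CPM in the library labelled as YAP/RBM4. All 4 lines lay below vector, with ratios of 0.894 (0.824 to 0.969), 0.856 (0.798 to 0.917), 0.688 (0.641 to 0.737) and 0.829 (0.773 to 0.888) in that order. With TMM factors these ratios were 0.879, 0.801, 0.846 and 0.745, all still below 1. CTSB, a cysteine protease, ranged from 232.7 CPM in YAP/TEAD4-S to 395.0 CPM in the library labelled as YAP/RBM4. The ratio of the latter to vector was 1.21 (1.10 to 1.34), or 1.09 with TMM factors. CTSD, the main aspartic protease of the lysosome, ranged from 22.6 CPM in YAP/TEAD4-S to 39.6 CPM in vector. CTSA, CTSZ (an exopeptidase) and CTSH (an aminopeptidase) had mean levels of 22.4 CPM, 27.2 CPM and 3.22 CPM, and no comparison took them past 2-fold. CTSK, the osteoclast cathepsin, had 0 to 3 counts in every library.

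Among the glycosidases and lipid hydrolases, the summed level was lower with YAP, at a ratio of 0.612 (0.457 to 0.805), and with YAP/TEAD4-S, at 0.515 (0.408 to 0.648), than in vector. These sums are on library totals, where the median gene of YAP/TEAD4-S was itself lower. After its subtraction the median of the group was -0.99 with YAP and -0.37 with YAP/TEAD4-S. PSAP, the precursor of the saposins that present sphingolipids to hydrolases, carried most of the summed level. This gene, on chromosome 10 of hg19 from 73576055 to 73611008 on the minus strand, had 62.0 CPM in vector, 38.0 CPM in YAP, 55.0 CPM in YAP/TEAD4-FL, 25.5 CPM in YAP/TEAD4-S and 57.6 CPM in the library labelled as YAP/RBM4. As for CTSL, the lowest levels were those of YAP/TEAD4-S and YAP. The ratio to vector was 0.613 (0.436 to 0.846) for YAP and 0.412 (0.307 to 0.549) for YAP/TEAD4-S, and the ratio of YAP/TEAD4-S over YAP/TEAD4-FL was 0.464 (0.345 to 0.619). With TMM factors the ratio of YAP/TEAD4-S was 0.507 to vector and 0.610 to YAP/TEAD4-FL, so that both were lower but no longer by 2-fold.

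The low members of this group rest on few counts. GAA had 8 counts in vector, 0 in YAP, 5 in YAP/TEAD4-FL, 4 in YAP/TEAD4-S and 9 for the library labelled as YAP/RBM4, so its level with YAP was at least 1.74-fold lower than in vector when YAP is set at the floor and the count in vector is taken as it stands. The counting interval of the ratio, which also covers the error of the count in vector, reached up to 0.898. GLA, the alpha-galactosidase, and HEXA, a hexosaminidase subunit, each had 9 counts in vector and 2 in YAP. Their ratio of 0.341 had an interval of 0.0358 to 1.65, which includes 1. GUSB, the beta-glucuronidase, and ASAH1, the acid ceramidase, had mean levels of 8.09 CPM and 4.29 CPM and did not pass 2-fold in any comparison.

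**Figure D4:**
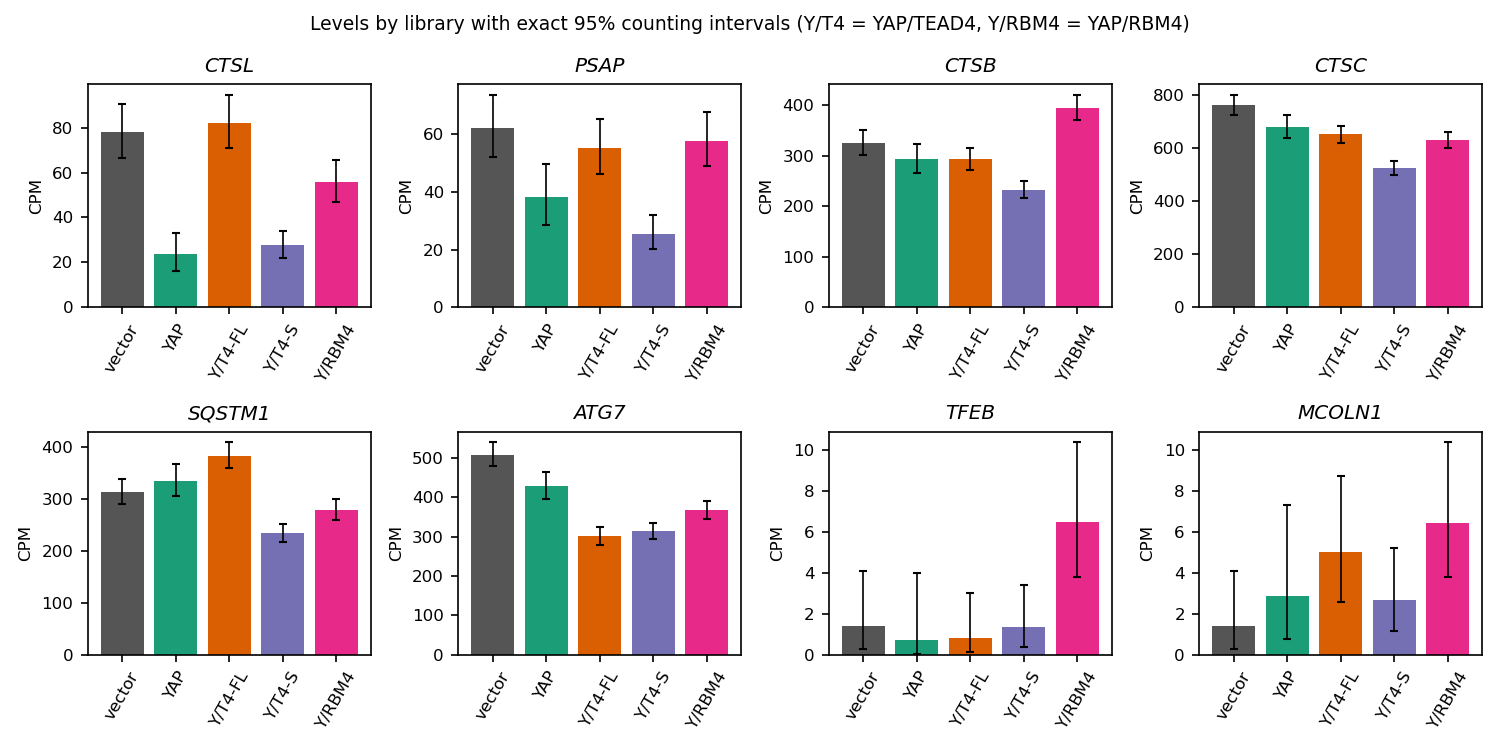
Level in CPM (vertical axes, starting at 0) of 8 members in the 5 libraries, with 1 bar per library and exact 95% counting intervals as error bars; the short names Y/T4 and Y/RBM4 stand for YAP/TEAD4 and YAP/RBM4. CTSL and PSAP are lowest with YAP and YAP/TEAD4-S, ATG7 is highest with vector, and TFEB and MCOLN1 are highest in the library labelled as YAP/RBM4 with wide intervals.

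The genes of the lysosomal membrane showed small differences at high counts. LAMP2, which guards the membrane and takes part in chaperone-mediated autophagy, had 79.5 CPM in vector, 68.8 CPM in YAP, 90.1 CPM in YAP/TEAD4-FL, 56.6 CPM in YAP/TEAD4-S and 77.6 CPM in the library labelled as YAP/RBM4. Its ratio of YAP/TEAD4-S over YAP/TEAD4-FL was 0.628 (0.512 to 0.773), or 0.826 with TMM factors. LAMP1, whose promoter is among those shown, ranged only from 15.0 CPM in YAP to 22.1 CPM in YAP/TEAD4-FL. CD63, a tetraspanin of late endosomes, was highest with vector at 39.2 CPM and ranged from 21.9 CPM to 28.2 CPM elsewhere. Its ratios to vector were 0.566 (0.362 to 0.863) for YAP, 0.693 (0.493 to 0.969) for YAP/TEAD4-FL, 0.559 (0.399 to 0.781) for YAP/TEAD4-S and 0.721 (0.521 to 0.998) for the library labelled as YAP/RBM4. Every one of these intervals left out 1, although all share the vector library.

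MCOLN1 went the other way. It had 3 counts in vector, 4 in YAP, 12 in YAP/TEAD4-FL, 8 in YAP/TEAD4-S and 16.9 for the library labelled as YAP/RBM4, or 1.4 CPM, 2.86 CPM, 5.01 CPM, 2.65 CPM and 6.46 CPM. Vector was thus the lowest library. The ratio to vector was 4.62 (1.34 to 24.7) for the library labelled as YAP/RBM4 and 3.58 (0.966 to 19.8) for YAP/TEAD4-FL. Of the 5 genes whose promoters hold TCACGTGA, MCOLN1 was at least 2-fold higher than vector with YAP/TEAD4-FL and in the library labelled as YAP/RBM4, GAA was lower with YAP and YAP/TEAD4-S, ATP6V0D1 had 2.93 counts in vector and 0 for the library labelled as YAP/RBM4, both at or under the floor, and CTSA and LAMP1 did not reach 2-fold against vector. For GAA with YAP/TEAD4-S the counting interval, 0.0784 to 1.33, included 1. The calls come from different comparisons and rest on few counts, so they do not settle whether these genes share a direction.

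The 9 members that code for subunits of the proton pump all lay below the median gene in YAP over vector, and their summed level was at a ratio of 0.673 (0.548 to 0.821). The most abundant, ATP6V1C1, a subunit of the cytosolic V1 sector, had 49.4 CPM in vector, 43.4 CPM in YAP, 51.5 CPM in YAP/TEAD4-FL, 45.0 CPM in YAP/TEAD4-S and 53.1 CPM in the library labelled as YAP/RBM4. Its ratio of YAP to vector was 0.879 (0.633 to 1.22), so that this subunit did not differ beyond counting error. ATP6V1A, the catalytic subunit, had 46.5 CPM in vector and 31.1 CPM in YAP, a ratio of 0.669 (0.462 to 0.971), and 43.4 CPM to 45.2 CPM in the other three lines. ATP6AP1, an accessory subunit, had 23.8 CPM in vector, and its lowest level was 12.3 CPM in YAP/TEAD4-S, at a ratio to vector of 0.516 (0.329 to 0.804), or 0.635 with TMM factors.

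Larger ratios in the pump came from subunits with few counts. ATP6V1E1, of the peripheral stalk, had 17 counts in vector, 1 in YAP, 17 in YAP/TEAD4-FL, 12 in YAP/TEAD4-S and 19 for the library labelled as YAP/RBM4. The YAP library alone was near 0, at a ratio to vector of 0.0902 (0.00216 to 0.575), and the ratio of YAP/TEAD4-FL to YAP was 9.93 (1.56 to 414.8). ATP6V0E1, of the membrane sector, had 8, 0, 12, 6 and 12 counts in the same order, which at the floor makes it at least 1.74-fold lower with YAP than in vector and at least 2.34-fold higher in YAP/TEAD4-FL than in YAP. With the error of both counts, the interval reached up to 0.898 for YAP over vector and down to 1.62 for YAP/TEAD4-FL over YAP. ATP6V1B2, a V1 subunit that binds nucleotide, was highest with vector, at 9.32 CPM from 20 counts, and lay between 2.65 CPM and 4.58 CPM elsewhere. Its ratio to vector was 0.307 (0.0762 to 0.915) for YAP, 0.358 (0.136 to 0.848) for YAP/TEAD4-FL and 0.285 (0.108 to 0.674) for YAP/TEAD4-S. ATP6V1D, a subunit of the central stalk, ranged from 4.64 CPM to 9.23 CPM. ATP6V0D1 and ATP6V1H, whose calls rest on 6.03 counts or fewer, had mean levels of 1.06 CPM and 1.08 CPM.

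Of the autophagy receptors, SQSTM1 did not follow the proton pump. It lies on chromosome 5 of hg19 from 179233398 to 179265078 and had 313.3 CPM in vector, 334.9 CPM in YAP, 383.0 CPM in YAP/TEAD4-FL, 234.2 CPM in YAP/TEAD4-S and 278.8 CPM in the library labelled as YAP/RBM4. On library totals it was highest with YAP/TEAD4-FL and lowest with YAP/TEAD4-S. The ratio to vector was 1.22 (1.11 to 1.35) for YAP/TEAD4-FL, 0.748 (0.671 to 0.832) for YAP/TEAD4-S and 0.890 (0.800 to 0.989) for the library labelled as YAP/RBM4. With TMM factors these ratios were 1.14, 0.920 and 0.800, so that the library labelled as YAP/RBM4 was then the lowest. Between the isoforms, the ratio of YAP/TEAD4-S over YAP/TEAD4-FL was 0.611 (0.553 to 0.675), or 0.804 with TMM factors. Over YAP alone, the ratio was 1.14 (1.02 to 1.28) for YAP/TEAD4-FL and 0.699 (0.621 to 0.787) for YAP/TEAD4-S, or 1.09 and 0.875 with TMM factors. C5orf45, whose exons lie opposite 21.0% of the exon bases of SQSTM1, had 934.8 CPM in vector, 882.9 CPM in YAP, 921.8 CPM in YAP/TEAD4-FL, 628.5 CPM in YAP/TEAD4-S and 556.6 CPM in the library labelled as YAP/RBM4, and its part in the values of SQSTM1 was not tested. NBR1, a related receptor, had 21.0 CPM, 12.1 CPM, 15.9 CPM, 7.96 CPM and 17.9 CPM in the same order of libraries. It was lowest with YAP/TEAD4-S, at a ratio to vector of 0.379 (0.221 to 0.636), or 0.467 with TMM factors.

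The ATG8 family, ubiquitin-like proteins that are attached to the growing membrane, had a lower summed level with YAP than in vector, at a ratio of 0.577 (0.386 to 0.845). MAP1LC3B, the LC3 protein used as a marker of autophagosomes, had 17.7 CPM in vector, 10.0 CPM in YAP, 18.4 CPM in YAP/TEAD4-FL, 12.3 CPM in YAP/TEAD4-S and 20.9 CPM in the library labelled as YAP/RBM4. Its ratio of YAP to vector was 0.565 (0.283 to 1.07), and that of the library labelled as YAP/RBM4 to YAP was 2.09 (1.15 to 4.09). GABARAPL1 had 12.1 CPM in vector, 3.60 CPM in YAP and 9.95 CPM to 12.6 CPM in the other three lines. YAP was the one low library, at a ratio to vector of 0.297 (0.0884 to 0.780) from 5.04 counts. GABARAP had 7.86 CPM in YAP and 13.4 CPM to 14.2 CPM in all other libraries. GABARAPL2 differed from the other family members, as it was lowest with vector, at 3.73 CPM from 8 counts, and highest in the library labelled as YAP/RBM4, at 11.1 CPM from 29 counts, a ratio of 2.97 (1.32 to 7.51).

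Among the genes that start autophagy, ULK2, a kinase of the initiation complex, was the steadiest, with 84.3 CPM in vector, 80.4 CPM in YAP, 89.1 CPM in YAP/TEAD4-FL, 79.7 CPM in YAP/TEAD4-S and 77.7 CPM in the library labelled as YAP/RBM4. None of its ratios had an interval that left out 1. Its paralog ULK1 was highest with vector, with 16.3 CPM, 7.86 CPM, 11.3 CPM, 7.96 CPM and 9.16 CPM in the same order of libraries. The ratio to vector was 0.482 (0.221 to 0.970) for YAP, 0.488 (0.278 to 0.844) for YAP/TEAD4-S and 0.562 (0.320 to 0.971) for the library labelled as YAP/RBM4, and with TMM factors it was 0.474, 0.600 and 0.505. ATG13, a partner of the kinases, ranged from 6.96 CPM to 13.6 CPM. RB1CC1, the scaffold of the complex, ranged from 5.0 CPM in YAP to 12.2 CPM in the library labelled as YAP/RBM4, a ratio of 2.44 (1.06 to 6.56).

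The lipid kinase complex had few counts. BECN1, which codes for beclin 1, had 8.39 CPM in vector, 5.0 CPM in YAP, 10.8 CPM in YAP/TEAD4-FL, 4.64 CPM in YAP/TEAD4-S and 8.40 CPM in the library labelled as YAP/RBM4. It was again high with YAP/TEAD4-FL and low with YAP/TEAD4-S, at a ratio between the isoforms of 0.428 (0.207 to 0.850), which became 0.563 with TMM factors. CNTD1, which overlaps 12.4% of the exon bases of BECN1 on the opposite strand, had a mean of 586.1 CPM against 7.46 CPM for BECN1. UVRAG, a regulator of the complex, had 1 count in YAP and 6 to 9 counts elsewhere, and PIK3C3, the kinase itself, had 2 to 7 counts in every library.

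Of the conjugation enzymes, ATG7 was lower than vector beyond counting error in all 4 other lines. It lies on chromosome 3 of hg19 from 11313995 to 11599139 and had 509.1 CPM in vector, 429.6 CPM in YAP, 301.7 CPM in YAP/TEAD4-FL, 314.4 CPM in YAP/TEAD4-S and 367.5 CPM in the library labelled as YAP/RBM4. Vector was the highest library, and the lines with a second construct lay below YAP alone. The ratio to vector was 0.844 (0.762 to 0.933) for YAP, 0.593 (0.539 to 0.651) for YAP/TEAD4-FL, 0.618 (0.566 to 0.674) for YAP/TEAD4-S and 0.722 (0.662 to 0.788) for the library labelled as YAP/RBM4. With TMM factors these ratios were 0.830, 0.554, 0.760 and 0.649. The isoforms did not differ beyond counting error on library totals, at a ratio of YAP/TEAD4-S over YAP/TEAD4-FL of 1.04 (0.945 to 1.15), but the ratio was 1.37 with TMM factors. VGLL4, which codes for a cofactor that competes with YAP for TEAD proteins, has exons opposite 18.1% of the exon bases of ATG7. VGLL4 had 194.9 CPM in vector, 145.7 CPM in YAP, 91.0 CPM in YAP/TEAD4-FL, 90.3 CPM in YAP/TEAD4-S and 96.5 CPM in the library labelled as YAP/RBM4. The genes of this pair were thus both highest with vector and lower with a second construct than in YAP alone, and the part of shared sequence in this was not tested.

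Other conjugation genes varied less. ATG12, the ubiquitin-like protein that ATG7 activates, had 50.02 CPM in vector and was lowest with YAP/TEAD4-S at 37.8 CPM, a ratio of 0.756 (0.577 to 0.996), or 0.929 with TMM factors. ATG3, the enzyme that transfers ATG8 proteins, had 5.0 CPM in YAP and 7.93 CPM to 10.9 CPM elsewhere. ATG5, the partner of ATG12, had 5 to 13 counts, and ATG16L1, which brings that pair to the membrane, 3 to 15 counts. Of the genes that supply membrane, WIPI2, which binds the lipid made by the kinase complex, had 21.1 CPM in vector, 28.6 CPM in YAP, 22.1 CPM in YAP/TEAD4-FL, 21.2 CPM in YAP/TEAD4-S and 32.5 CPM in the library labelled as YAP/RBM4. Its ratio to vector was 1.54 (1.07 to 2.27) for the library labelled as YAP/RBM4, or 1.38 with TMM factors. ATG9A, a lipid scramblase, was highest with vector at 24.7 CPM and ranged from 12.9 CPM to 19.1 CPM elsewhere, with a ratio of 0.550 (0.307 to 0.943) for YAP over vector. WIPI1, a relative of WIPI2, had 13.3 CPM in vector and was lowest with YAP/TEAD4-FL at 5.84 CPM, a ratio of 0.438 (0.211 to 0.844).

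Because reads of a gene on the opposite strand may be counted in a member, the overlaps of all members were examined in the GENCODE annotation on hg19. Of the 51 members, 28 had no exon base opposite an exon of another gene, and 9 had over 10% of their exon bases so placed. Such overlap above 10% was found for 16.8% of all genes compared. In 16 pairs the opposite gene was also in the table, and in 9 of these it had the higher mean level. For example, CTSA had a mean of 22.4 CPM and PLTP, a phospholipid transfer protein whose exons lie opposite 3.81% of its exon bases, 187.3 CPM, and GLA had 2.74 CPM and RPL36A, a ribosomal protein gene, 231.4 CPM. Without the members over 10% opposite, the median of YAP over vector was -0.58 and 10 of 40 members were at least 2-fold lower, against 9.57% of all genes.

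**Figure D5:**
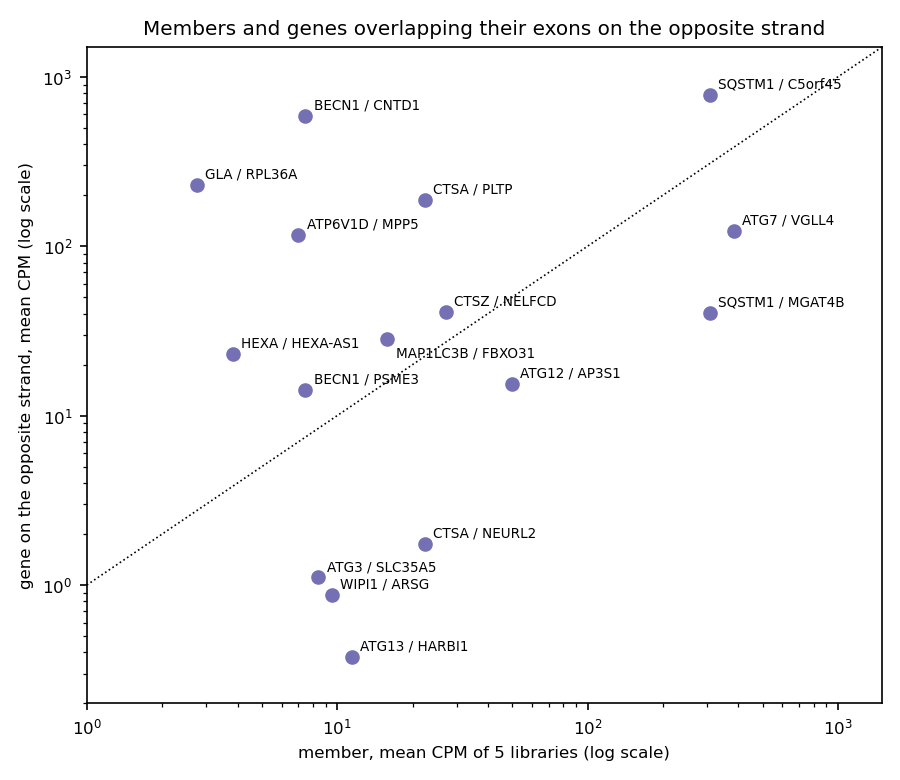
Mean level over the 5 libraries of a member (horizontal axis, CPM, log scale) and of a gene whose exons lie opposite its own (vertical axis, CPM, log scale), for the 16 pairs in which both are in the table, with the dotted line marking equal levels. In 9 pairs the gene on the opposite strand has the higher level, with BECN1 and CNTD1 and GLA and RPL36A farthest above the line.

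Other genes of lysosomes, of the proton pump, of autophagy and of the mTORC1 pathway, which senses nutrients at the lysosome, were compared in the same way. Of the 94 that passed the filter, 13 were at least 2-fold lower and 2 higher with YAP over vector, and their median was -0.073, close to that of all genes. Among all genes, 9.57% were lower and 4.9% higher. Among these lists, the 36 other lysosomal genes had 9 lower and 1 higher with a median of -0.21, so that lower genes were more frequent among them than among all genes, as they were among the members. The 11 other pump subunits had 2 lower and 0 higher with a median of 0.15. The members and the other subunits of the pump thus lay on different sides of the median gene. The 30 other autophagy genes had 0 members at 2-fold in either direction and a median of -0.020, and the 17 genes of the mTORC1 pathway had 2 lower and 1 higher with a median of -0.040.

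Named genes of these lists showed both directions. ACP2, a lysosomal acid phosphatase, had 4.66 CPM in vector and 10.0 CPM to 14.3 CPM in the other lines, with a ratio of 3.07 (1.37 to 7.33) for YAP. MAN2B1, the lysosomal alpha-mannosidase, had 23.8 CPM in vector, 10.7 CPM in YAP and 24.8 CPM in the library labelled as YAP/RBM4, at a ratio of YAP to vector of 0.451 (0.235 to 0.814). TCIRG1, a membrane subunit of the pump, was lowest in YAP and YAP/TEAD4-S, with 17.7 CPM, 8.57 CPM, 20.03 CPM, 10.3 CPM and 24.5 CPM in the order of libraries used above. Its ratio of YAP to vector was 0.484 (0.230 to 0.946) and that of YAP/TEAD4-S over YAP/TEAD4-FL was 0.512 (0.316 to 0.823). CALCOCO2, an autophagy receptor, was lower with YAP than in vector, at 0.547 (0.329 to 0.887). MTOR, the kinase that restrains autophagy, was highest with YAP/TEAD4-FL, at 28.8 CPM against 14.0 CPM in vector, a ratio of 2.06 (1.32 to 3.27). ATP6V1C2, the paralog of ATP6V1C1, stood at 3662 CPM to 5219 CPM, and 29.5% of its exon bases lie opposite PDIA6, which codes for an abundant protein of the endoplasmic reticulum and had a mean of 26.3 CPM, so the level of ATP6V1C2 cannot be told apart from that of its neighbour.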

How the data were processed

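The 5 H157 lines gave 1 RNA library each, assigned from the sample labels; the full-length and short TEAD4 lines were identified through the names used in the methods. The authors ran RSEM on alignments to hg19 (Bowtie2 2.2.5, per the submitters' notes) and deposited the resulting expected counts of each gene without scaling. How RNA was selected is uncertain, since the methods name polyadenylated RNA but also Ribo-Zero with a kit for total RNA. EBSeq, which the authors used for differential expression, was not run. The members, the lists and the rule for named genes were chosen with earlier results of these data known.

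CPM were computed on library totals. Genes whose mean reached 1 CPM were compared on log2(CPM + 0.5), and a call was a difference of at least 2-fold. Exact 95% Clopper-Pearson intervals used rounded counts. No test between lines was possible. Every member could be named; members at least 2-fold away in any comparison whose mean reached 10 CPM, the MiT/TFE factors and the most abundant member of each role are given in full, and from each other list up to 3 genes by largest difference to vector at a mean of at least 10 CPM, of which 1 is not reported here. Outside this rule, MAP1LC3A and MAP1LC3C are named beside the ATG8 members. edgeR (4.0.16) and DESeq2 (1.42.0) in R (4.3.3) gave TMM and size factors only, as alternatives, beside pseudocounts of 0.1 and 2 CPM, no filter and a filter at 10 CPM. The alternatives with zeros set at the floor of 3 counts and with members over 10% opposite, or with any exon base opposite, left out, and the comparison of antisense with sense genes, were chosen after seeing the data. Other steps used Python (3.11.15), numpy (2.4.6), pandas (2.3.3), scipy (1.17.1) and matplotlib (3.10.9). Exon overlaps came from GENCODE (version 44, lifted to hg19), in which 22923 of 25343 symbols were found, and promoters from RefSeq. The calculation was tested on simulated counts.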

Additional observations from a re-analysis of the deposited data

How the results depend on the processing

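With 1 library per line, no replicate could be left out and nothing tests the differences between lines. No paired analysis was possible because each line has 1 library. Of the counts and medians over the members, recomputed under each alternative, 169 kept within 1.5 times the value given in the report, or within its interval, and 47 did not. Of the ratios of single members, 2111 kept within their counting interval and 49 did not, and no call changed direction. The median of YAP over vector stayed negative under every alternative tried, and 0 members were higher in it under TMM factors or size factors.

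With TMM factors, and equally with DESeq2 size factors, members at least 2-fold higher numbered 1 for YAP/TEAD4-FL over vector and 1 for YAP/TEAD4-S over vector, and members lower numbered 3 for YAP/TEAD4-S over vector, 2 for YAP/RBM4 over vector and 2 for YAP/TEAD4-S over YAP/TEAD4-FL, with shares of all genes under TMM factors given in the report. A pseudocount of 0.1 CPM gave 2 lower for YAP/RBM4 over vector (4.25% of all genes). A pseudocount of 2 CPM, which shrinks low genes, gave 6 lower for YAP over vector (5.05% of all genes), 1 higher (4.21%) and 1 lower (3.24%) for YAP/TEAD4-FL over vector, 0 lower for YAP/RBM4 over vector (1.68%), 5 higher for YAP/TEAD4-FL over YAP (5.98%), 2 higher for YAP/TEAD4-S over YAP (2.14%), 7 higher (7.52%) and 0 lower (1.28%) for YAP/RBM4 over YAP, and 2 lower for YAP/TEAD4-S over YAP/TEAD4-FL (4.87%). With no filter, so that MITF and CTSK and many genes near 0 entered, the centred median was -0.51 for YAP/TEAD4-S over vector, -0.013 for YAP/RBM4 over vector, -0.067 for YAP/TEAD4-S over YAP and -0.34 for YAP/TEAD4-S over YAP/TEAD4-FL, with 1 lower for YAP/TEAD4-S over YAP (7.42% of all genes) and 1 higher for YAP/TEAD4-S over YAP/TEAD4-FL (2.39%). The median of all genes was then -0.13 between the isoforms and 0 in the other comparisons. Shifts of whole libraries were thus not fully subtracted from these medians. The filter at 10 CPM, which left 25 members, gave 2 lower for YAP over vector (3.32% of genes at that level), 0 higher (3.41%) and 0 lower (3.17%) for YAP/TEAD4-FL over vector, 3 lower for YAP/TEAD4-S over vector (6.23%), 0 higher (2.66%) and 0 lower (1.43%) for YAP/RBM4 over vector, 1 higher for YAP/TEAD4-FL over YAP (3.07%), 0 higher for YAP/TEAD4-S over YAP (1.16%), 2 higher (4.01%) and 0 lower (0.999%) for YAP/RBM4 over YAP with a median of 0.15, and 2 lower for YAP/TEAD4-S over YAP/TEAD4-FL (4.6%). With zeros at the floor, there were 0 lower for YAP/RBM4 over vector (3.31% of all genes), 5 higher for YAP/TEAD4-S over YAP (4.07%) and 0 lower for YAP/RBM4 over YAP (2.42%). YAP over vector then had 8 lower (8.05%) and a median of -0.42. Without members over 10% opposite, 1 was lower for YAP/TEAD4-FL over vector (6.0% of all genes). Without members with any exon base opposite, 26 were left. Of these, 7 were lower for YAP over vector (9.57% of all genes) and 1 was lower for YAP/TEAD4-FL over vector (6.0%). Higher over YAP were 6 for YAP/TEAD4-FL (11.6%), 4 for YAP/TEAD4-S (6.1%) and 8 for YAP/RBM4 (13.3%). These smaller counts come from fewer members, and the centred median for YAP over vector was -0.42.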
